A study of Mus musculus with 13 samples.

Results

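The p53 pathway was followed through 10 genes chosen by symbol: Trp53, which encodes p53 itself, its 2 main inhibitors Mdm2 and Mdm4, and 7 genes that p53 is known to switch on, Cdkn1a, Zmat3, Aen, Ccng1, Phlda3, Eda2r and Trp53inp1. All 10 were found among the 22997 gene symbols of the table. RNA was sequenced from 13 libraries, each of 50000 bone marrow cells that carried CD138 and CD45.2 and lacked B220, the sort for plasma cells, and the strain label of every group is C57/BL6. VQ denotes mice that received transplanted cells of genotype Vκ*MYC, Nras LSL Q61R/+ and IgG1-Cre, from 3 lines named D1 (2 libraries), D4 (1) and D5 (2). Their cells carry a human MYC transgene that somatic hypermutation switches on in germinal centre B cells, and an activated Nras allele that Cre, expressed from the IgG1 locus, unlocks. tVk12653 denotes mice that received the transplantable Vκ*MYC line of that name (2), a single line. V denotes mice with Vκ*MYC and IgG1-Cre (3), and WT wild-type mice (3). VQ and tVk12653 cells were taken from transplant recipients and V and WT cells were not, so that a difference of genotype and a difference made by transplanting cannot be told apart. Ages of the mice are not stated in the labels, nor do the labels say whether each library is a separate animal, so that p-values measure the spread among these samples, which may be technical.

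p53 is a transcription factor that can halt the cell cycle, promote DNA repair or trigger cell death after DNA damage, oncogene activation or ribosome stress. MDM2 tags p53 for destruction and is itself a p53 target, which closes a feedback loop, and MDM4 blocks p53 at its target genes. Most control of p53 acts on the protein, so the RNA of Trp53 is not a measure of p53 activity. Gene counts do not show whether Trp53 carries a mutation in any of these lines.

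To show the letters at which p53 could bind, the p53 half-site, a motif of 10 bases read alike on both strands, was sought in RefSeq windows of GRCm38.p6 from 250 bases before to 50 after a transcript start. It was present in 8.36% of 32851 windows, and a full site, a pair of half-sites with at most 13 bases between them, in 0.0731%. Windows were available for 8 of the 10 genes. A half-site was in the windows of 5 of these 8 genes, and Cdkn1a alone of them held a full site, at the more distal of its 2 annotated starts. The windows below carry the half-sites in capitals, and Cdkn1a is shown at greater length because it holds the full site. A match to the motif is a description of these letters and was not tested for binding.
Cdkn1a, chr17:29090729-29090978, plus strand: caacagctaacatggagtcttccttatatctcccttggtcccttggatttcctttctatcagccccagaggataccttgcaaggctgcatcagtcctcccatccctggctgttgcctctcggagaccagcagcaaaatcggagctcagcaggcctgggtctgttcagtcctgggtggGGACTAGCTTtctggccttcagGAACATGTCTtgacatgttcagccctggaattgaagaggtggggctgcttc
Mdm2, chr10:117710889-117710988, minus strand: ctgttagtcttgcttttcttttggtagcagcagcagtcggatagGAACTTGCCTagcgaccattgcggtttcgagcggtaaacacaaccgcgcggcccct
Ccng1, chr11:40755417-40755516, minus strand: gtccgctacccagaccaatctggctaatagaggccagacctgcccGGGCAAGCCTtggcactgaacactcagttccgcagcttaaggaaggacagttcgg
Trp53, chr11:69580254-69580343, plus strand: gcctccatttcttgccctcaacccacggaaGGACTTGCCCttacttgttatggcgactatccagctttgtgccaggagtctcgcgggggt
In Cdkn1a the half-sites GGACTAGCTT and GAACATGTCT lie 12 bases apart and end 64 and 42 bases before that start. Aen held the half-site GGGCTTGTCC at chr7:78895937-78895946 on the plus strand. The windows of Mdm4, Phlda3 and Eda2r held no half-site, which says only that these letters are not in these windows.

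Levels are in CPM, counts set to a common library size, scaled by trimmed means of M values and not by gene length, so levels of different genes are not compared. Total counts per library were 2096815 to 8512281, and 3 counts, the limit that a count of 0 allows, equal 0.325 to 1.49 CPM. VQ was tested as 3 lines, with the counts of a line's recipients summed, and means of VQ are over lines. The libraries of tVk12653 come from a single line, so they carry no spread between lines. Fold changes are log2 values ± standard error from edgeR quasi-likelihood tests, with p-values adjusted over all genes tested by the Benjamini-Hochberg method and a threshold of 0.05. The plasma cell genes Sdc1, Irf4, Prdm1 and Xbp1 were present in every library, whereas the surface protein gene Cd38 was at 0 in D1 replicate 2, in D4 and in both tVk12653 libraries. Jchain, whose product links antibody units for secretion, stood at 44.3 to 1499 CPM in VQ, 3993 to 6741 CPM in tVk12653, 35013 to 55086 CPM in V and 33688 to 64416 CPM in WT. The plasma cell gene Mzb1 had 0.559 CPM in D4, 127 to 381 CPM in D1 and D5, and 6.70 to 7.25 CPM in tVk12653. It had 382 to 565 CPM in V and 276 to 363 CPM in WT. Tnfrsf17 had 2.81 to 83.0 CPM in VQ, 20.6 to 23.9 CPM in tVk12653, and at least 83.3 CPM in V and WT. The 8 plasma cell markers summed to 5182 to 7902 CPM in VQ and 8363 to 12105 CPM in tVk12653. In V they summed to 41833 to 62437 CPM and in WT to 38048 to 70873 CPM, most of it Jchain. Summed neutrophil markers were 70.3 to 1235 CPM in the VQ libraries, 90.2 to 154 CPM in tVk12653, 1828 to 3648 CPM in V and 3358 to 9183 CPM in WT, with none of the 10 markers at 0 in any group. Summed B cell markers were 72.8 to 215 CPM in VQ, 91.5 to 113 CPM in tVk12653, 667 to 909 CPM in V and 581 to 909.6 CPM in WT, and of these 8 markers 2 or 3 were at 0 in each tumour group. The T and NK cell markers summed to 0.526 to 4.57 CPM in VQ, 0.725 to 2.54 CPM in tVk12653, 39.6 to 49.1 CPM in V and 59.4 to 78.9 CPM in WT. Erythroid markers summed to 4.82 to 19.9 CPM in VQ, 10.9 to 13 CPM in tVk12653, 11.4 to 32.7 CPM in V and 118 to 762 CPM in WT. Monocyte markers overlapped in sum, at 21.1 to 1626 CPM in VQ, 994 to 1366 CPM in tVk12653, 524 to 1443 CPM in V and 515 to 1682 CPM in WT. Ly6c2 alone had 2.37 to 1533 CPM in VQ, 877 to 1197 CPM in tVk12653, 250.4 to 1225 CPM in V and 127 to 398 CPM in WT. Lyz2 had at most 60.7 CPM in VQ and 7.16 CPM in tVk12653, and at least 174 CPM in V and 325 CPM in WT. In VQ against WT 6 of the 8 markers were lower and 0 higher, where 15.1% of all genes were lower. In tVk12653 against WT 6 were lower and 1 higher, where 15.7% and 12.6% of all genes were. The neutrophil, B cell and T cell sums were lower in all 7 transplanted libraries than in all 6 others, and the part of admixed cells in the results below was not tested. In sorted bulk cells, fewer cells with an RNA and less RNA per cell cannot be told apart.

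Cdkn1a, Zmat3, Aen and Phlda3 stood higher in all transplanted libraries than in all V and WT libraries, and Eda2r in all but D4, where it was at the floor of 3 counts. Mdm2 was lower in tVk12653, while Trp53 and Mdm4 did not pass against V or WT, except under the alternatives given with them. In VQ against WT, 5 of the 10 genes were higher (Cdkn1a, Zmat3, Aen, Phlda3 and Eda2r) and 0 lower, where 17.3% of the 11933 genes tested were higher and 15.1% lower. Against V the same 5 were higher and 0 lower, with 15.6% of all genes higher and 12.4% lower. In tVk12653, 4 were higher (Zmat3, Aen, Phlda3 and Eda2r) and 1 lower (Mdm2) against WT and likewise against V, where 12.6% and 10.3% of all genes were higher and 15.7% and 12.9% lower. The median log2 fold change of the 10 genes was 1.14 in VQ against WT and 0.89 against V, and 1.23 in tVk12653 against WT and 0.55 against V, where the medians of all genes were 0.08, 0.08, -0.05 and -0.04. These comparisons share libraries. Phlda3 and Eda2r passed the filter on low counts through the tumour libraries alone, so that they had to differ. Both are included in the counts and medians above and raise them, so these medians are no evidence of a shift of the set. Medians without them were not computed. Among the other genes in tVk12653 against V, Mdm2, Mdm4, Ccng1 and Trp53inp1 had negative log2 fold changes (-1.17, -0.08, -0.59 and -0.77). Trp53, Cdkn1a, Zmat3 and Aen had positive ones (0.12, 0.99, 1.30 and 1.92). Apart from these, the genes called higher were Cdkn1a, Zmat3 and Aen in VQ, and Zmat3 and Aen in tVk12653.

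**Figure D1:**
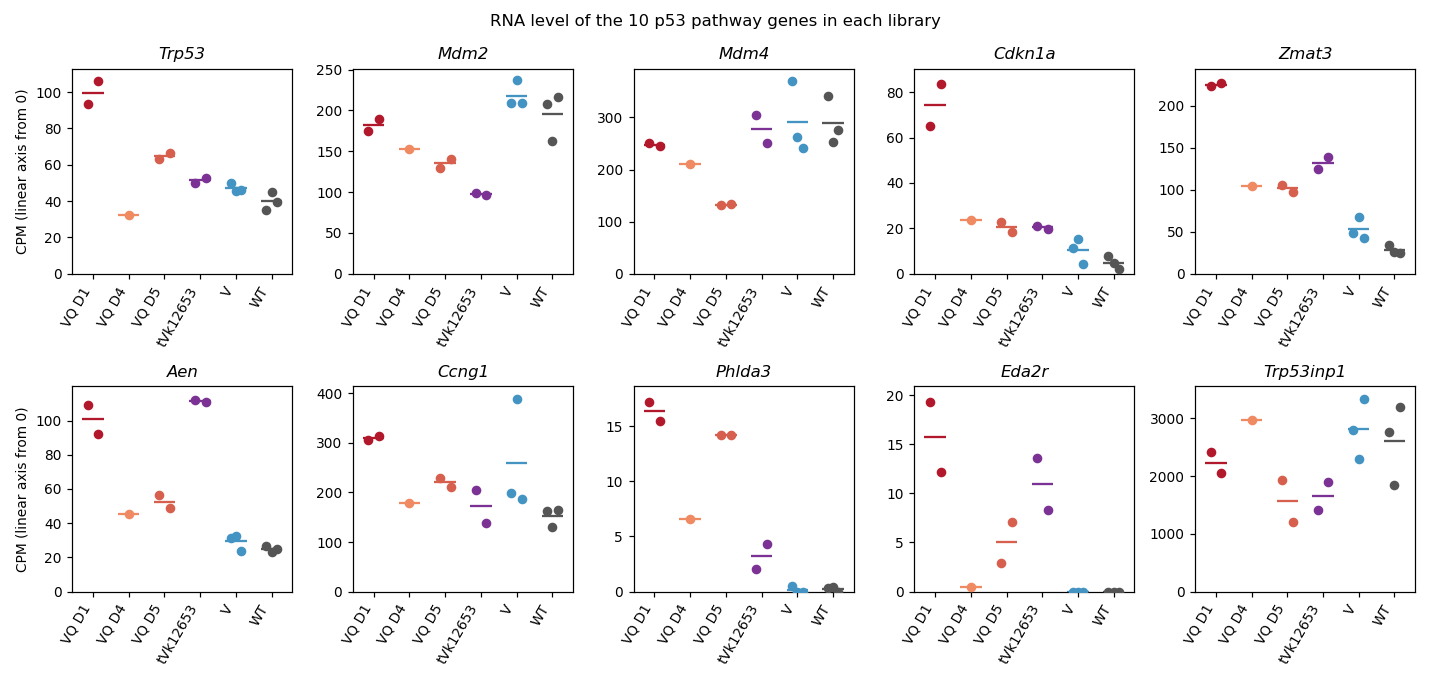
RNA level (CPM, linear axis from 0) of the 10 genes in each of the 13 libraries. Each point is a library, each bar the mean of its group, and groups run from VQ D1, D4 and D5 through tVk12653 to V and WT. Zmat3, Aen, Cdkn1a and Phlda3 are above every V and WT library in all 7 tumour libraries, Eda2r is so in all but D4, which is at 3 counts, D1 is highest or near it for most genes, and Mdm2 is lowest in tVk12653.

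Trp53 (GRCm38.p6, chr11:69580348-69591873) spread widest over the VQ lines, from the lowest library of the series to the highest. It stood at 93.5 and 106 CPM in D1, 32.3 CPM in D4, 63.4 and 66.7 CPM in D5, 50.1 and 52.9 CPM in tVk12653, 50, 45.5 and 46.0 CPM in V, and 35.0, 45.2 and 39.5 CPM in WT. D4 lay below every other library, D1 and D5 above all V and WT libraries, and tVk12653 just above V. The difference was 0.82 ± 0.35 in VQ against WT (adjusted p = 0.0974), with an interval from 0.04 to 1.59, and it passed with D4 left out (adjusted p = 0.00355, with a range from 0.00286 to 0.396 over all alternatives tried), with 13 libraries and 1 mean per arm (adjusted p = 0.0466) and with the replicate block (adjusted p = 0.00286). Against V it was 0.56 ± 0.35 (adjusted p = 0.245) and likewise passed without D4 (adjusted p = 0.0113, range 0.0113 to 0.894) and with the block (adjusted p = 0.0495). In tVk12653 it was 0.37 ± 0.39 against WT (adjusted p = 0.509). A processed pseudogene copy of Trp53 exists, and no source used here says how shared reads were counted.

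Neither inhibitor gene was called higher against V or WT, whereas between VQ lines both were called higher in D1 than in D5. Mdm2 (chr10:117688875-117710758) stood at 175 and 190.0 CPM in D1, 153 CPM in D4, 129.7 and 141 CPM in D5, 99.1 and 96.0 CPM in tVk12653, 209, 237 and 209 CPM in V, and 208, 163 and 217 CPM in WT. Both tVk12653 libraries were below all others, and the VQ libraries were below all V libraries but overlapped WT. Mdm2 fell in tVk12653, by 1.00 ± 0.19 on the log2 scale against WT (adjusted p = 0.0050) and by 1.17 ± 0.19 against V (adjusted p = 0.00323). In VQ the change was -0.24 ± 0.16 against WT (adjusted p = 0.277) and -0.41 ± 0.16 against V (adjusted p = 0.0858), with intervals from -0.61 to 0.12 and from -0.78 to -0.05. The call in tVk12653 against WT was lost without tVk12653 replicate 2, which leaves 1 library of that line. Its log2 change ran from -1.12 to -0.91 with a library or line left out. Mdm2 in VQ against V passed with line D1 left out (adjusted p = 0.0290, range 0.00850 to 0.223). With all lines kept it passed in DESeq2 (adjusted p = 0.0289), with 13 libraries and 1 mean per arm (adjusted p = 0.0335) and with the replicate block (adjusted p = 0.00850). The fits of 13 libraries count recipients of a line as replicates.

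Mdm4 (chr1:132986105-133030587) stood at 251 and 245 CPM in D1, 210.0 CPM in D4, 131 and 133 CPM in D5, 305 and 251 CPM in tVk12653, 370.5, 263 and 242 CPM in V, and 342, 253 and 275 CPM in WT. D5 was the lowest group and tVk12653 overlapped V and WT. No arm differed from V or WT at the threshold, the change being -0.50 ± 0.25 in VQ against WT (adjusted p = 0.145) and -0.52 ± 0.25 against V (adjusted p = 0.139). With a replicate block over all 13 libraries, which counts recipients of a line as replicates, the change was -0.7 in both and passed (adjusted p = 0.000327 and 0.000356), and over all alternatives the adjusted p reached 0.358 and 0.416. Reads of Mdm4 per read of Mdm2, a ratio that is not corrected for gene length, were 3.08 and 2.62 in tVk12653, and between 0.939 and 1.78 in the other 11 libraries, with the lowest values in D5. Mdm4 overlaps the annotated genes Gm29257 and Gm41953, and no source used here gives a strand setting for the counts.

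Cdkn1a (chr17:29090979-29100722), which encodes the cell cycle inhibitor p21, had 65.3 and 83.7 CPM in D1, 23.6 CPM in D4, 22.6 and 18.5 CPM in D5, 21.0 and 19.9 CPM in tVk12653, 11.4, 15.3 and 4.21 CPM in V, and 7.77, 4.81 and 1.99 CPM in WT. All 7 tumour libraries were above all V and WT libraries, and D1 was well above the rest, while V and WT overlapped. Its fold change was 3.15 ± 0.70 in VQ against WT (adjusted p = 0.00806) and 2.05 ± 0.66 against V (adjusted p = 0.0423). The call against WT held with each library or line left out. The call against V was lost in 7 of 15 such fits (adjusted p from 0.0594 to 0.155): without WT replicate 2, any V library, either tVk12653 library or line D1. In a fit of VQ and V alone 1 of the 10 genes, Phlda3, passed, and Cdkn1a, Zmat3 and Aen did not. In tVk12653 the fold change was 2.09 ± 0.73 against WT (adjusted p = 0.0582) and 0.99 ± 0.71 against V (adjusted p = 0.339). The difference from WT passed in DESeq2, in a fit of these arms alone (adjusted p = 0.00922) and with the replicate block (adjusted p = 0.000529). It also passed in 4 of 15 fits that left out a library or line, those without D1 replicate 2 or any VQ line (adjusted p from 0.0216 to 0.0472). Over all alternatives its adjusted p reached 0.171.

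Ccng1 (chr11:40748552-40755309), which encodes cyclin G1, an early p53 target, had 306 and 315 CPM in D1, 178 CPM in D4, 230.0 and 212 CPM in D5, 206 and 139 CPM in tVk12653, 199.6, 389 and 187 CPM in V, and 162, 129.6 and 164 CPM in WT. All VQ and all V libraries were above all WT libraries, and V overlapped VQ. The fold change was 0.71 ± 0.32 in VQ against WT (adjusted p = 0.114) and -0.07 ± 0.32 against V (adjusted p = 0.892).

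Zmat3 (chr3:32334792-32365665), a zinc finger gene whose protein binds RNA and alters splicing, had 223 and 227 CPM in D1, 104 CPM in D4, 106 and 97.2 CPM in D5, 125 and 139 CPM in tVk12653, 49.0, 67.9 and 42.4 CPM in V, and 34.6, 25.2 and 24.4 CPM in WT. Every transplanted library was above every V library, and every V library above every WT library. Zmat3 rose by 2.42 ± 0.34 in VQ against WT (adjusted p = 0.00102) and by 1.49 ± 0.33 against V (adjusted p = 0.0101). In tVk12653 it rose by 2.24 ± 0.36 against WT (adjusted p = 0.00260) and by 1.30 ± 0.36 against V (adjusted p = 0.0282), and the call against V was lost in 4 of 15 fits that left out a library or line, those without V replicate 1 or 3 or either tVk12653 library (adjusted p from 0.0800 to 0.138). Zmat3 overlaps the annotated gene 4930429B21Rik.

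Aen (chr7:78895927-78911209) encodes an exonuclease that takes part in p53-dependent cell death. It had 109 and 92.4 CPM in D1, 45.1 CPM in D4, 56.6 and 48.7 CPM in D5, 112 and 111 CPM in tVk12653, 31.2, 32.7 and 24.0 CPM in V, and 26.5, 23.3 and 24.7 CPM in WT. The tumour libraries were all above V and WT, with tVk12653 and D1 highest. Aen rose by 1.46 ± 0.29 in VQ against WT (adjusted p = 0.00460) and by 1.21 ± 0.28 against V (adjusted p = 0.0129). In tVk12653 it rose by 2.17 ± 0.31 against WT (adjusted p = 0.00146) and by 1.92 ± 0.31 against V (adjusted p = 0.00305). The VQ call against V was lost without V replicate 3 (adjusted p = 0.0593), and over all alternatives its adjusted p ranged from 0.000107 to 0.0718.

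A pair of target genes were close to silent in V and WT. Phlda3 (chr1:135766085-135769134), whose protein holds back AKT signalling, had 17.2 and 15.5 CPM in D1, 6.57 CPM in D4, 14.2 CPM in each D5 library, 2.08 and 4.35 CPM in tVk12653, at most 0.495 CPM in V and at most 0.370 CPM in WT. Its summed counts were 364 in VQ and 21 in tVk12653, against 1 in V and 2 in WT. The ratio of summed counts, scaled by library size, was 59.1 in VQ over WT (95% counting interval 16.3 to 490) and 103 in VQ over V (18.5 to 4100). It was 13.4 in tVk12653 over WT (3.28 to 118) and 23.5 in tVk12653 over V (3.77 to 970). Phlda3 passed the filter on low counts through the tumour libraries alone, so a difference was built in and the p-values are descriptive only. The test gave adjusted p = 0.00222 in VQ against WT and 0.00271 against V. In tVk12653 it gave 0.0255 against WT and 0.0239 against V, calls lost in 5 and 4 of 15 fits that left out a library or line. These were each tVk12653 and WT library against WT, and each tVk12653 library and V replicates 2 and 3 against V, with adjusted p up to 0.142.

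Eda2r (chrX:97333837-97377234), an X-linked receptor of the tumour necrosis factor family, had 19.3 and 12.2 CPM in D1, 0.419 CPM (3 counts) in D4, 2.89 and 7.10 CPM in D5, and 13.6 and 8.33 CPM in tVk12653. It was at 0 in all 6 V and WT libraries, where 3 counts equal 0.852 to 1.49 CPM. On mean CPM against the floor of 3 counts per library it was at least 7.01-fold higher in VQ than in WT and at least 6.02-fold higher than in V. In tVk12653 it was at least 10.9-fold higher than in WT and at least 9.35-fold higher than in V. Eda2r also passed the filter on low counts through the tumour libraries alone, so its p-values are descriptive only. The adjusted p was 0.0348 in VQ against WT and 0.0433 against V, and 0.0329 in tVk12653 against WT and 0.0411 against V. These calls were unstable: in 5 to 9 of 15 fits that left out a library or line they were lost, with D4 itself at the floor. The losses came from leaving out any tVk12653 library in all 4 comparisons, any WT library against WT, any V library against V, D1 replicate 2 against V, line D1 or D5 in VQ, and D5 replicate 2 in VQ against V. Eda2r overlaps the annotated gene Gm18111.

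Trp53inp1 (chr4:11156441-11174379), which encodes a nuclear protein that promotes p53-driven death and autophagy, had negative log2 fold changes in VQ and tVk12653 against both V and WT. It had 2422 and 2051 CPM in D1, 2979 CPM in D4, 1940.3 and 1197 CPM in D5, 1422 and 1903 CPM in tVk12653, 2799, 2302 and 3344 CPM in V, and 2774, 1851 and 3198 CPM in WT. The tVk12653 and D5 libraries lay below all V and D1 libraries, and both groups overlapped WT. The fold change was -0.17 ± 0.27 in VQ against WT (adjusted p = 0.658) and -0.77 ± 0.31 in tVk12653 against V (adjusted p = 0.0995). The latter passed in a fit of these arms alone (adjusted p = 0.00797) and with the replicate block (adjusted p = 0.0446). Leaving out a library or line changed the call in 0 of 15 fits.

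Of the 8 genes other than Phlda3 and Eda2r, 3 (Cdkn1a, Zmat3 and Aen) were higher in each of the 7 tumour libraries than in all 6 V and WT libraries and 0 lower, where 8.18% of 12835 genes were higher throughout and 11.3% lower.

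**Figure D2:**
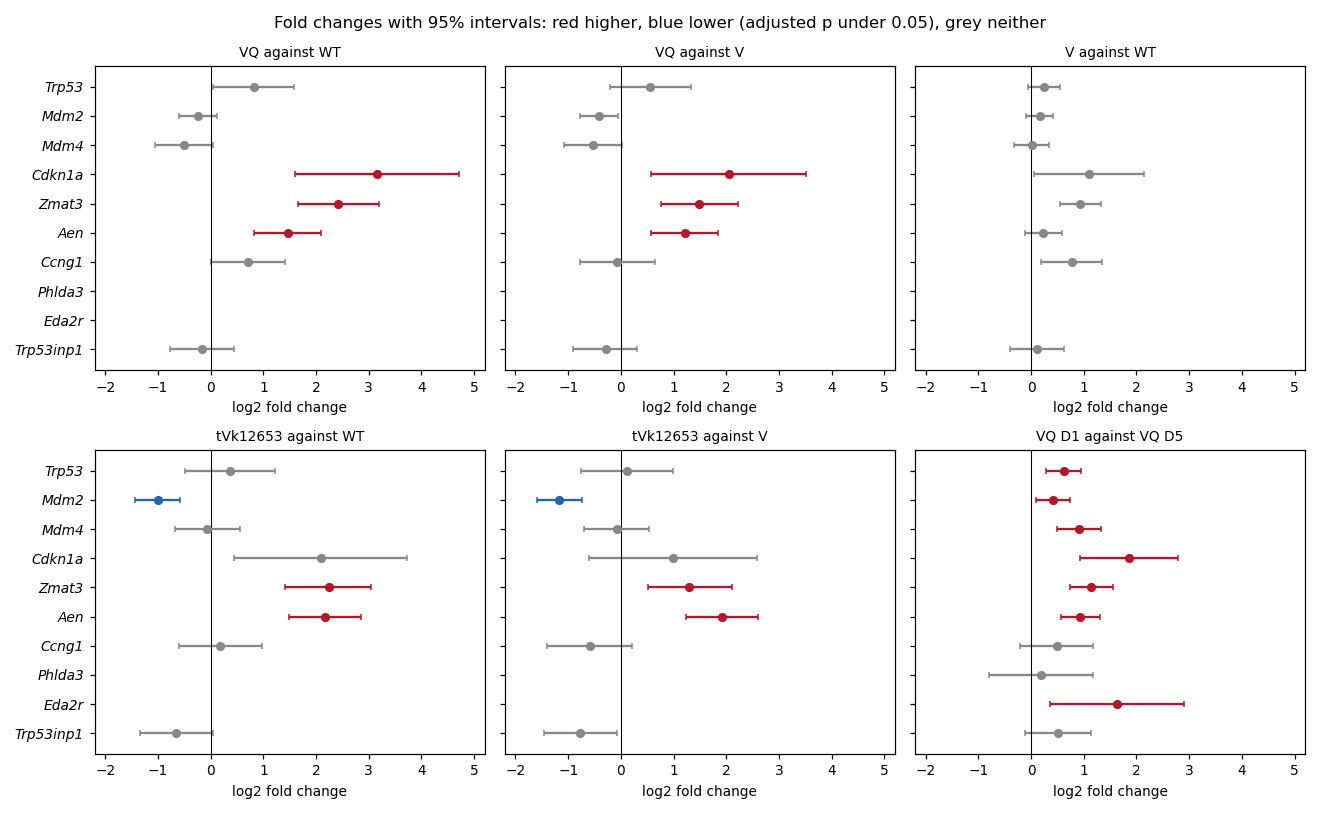
Log2 fold changes of the 10 genes with 95% intervals in 6 comparisons, the sample named first in each title over the second. Red points are higher and blue points lower at an adjusted p under 0.05, and grey points passed neither way. Phlda3 and Eda2r are drawn only in VQ D1 against VQ D5, since they were near or at 0 in V and WT. Cdkn1a, Zmat3 and Aen are red in VQ against WT and against V, Mdm2 is blue in tVk12653, and V against WT has grey points alone.

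V against WT sets the transgene and Cre against neither, in cells that were not transplanted. By edgeR, 0 of the 10 genes passed, and 0.132% of 12835 genes were higher and 0.0545% lower, while 1872 genes had an unadjusted p under 0.05, among them 3 of the 10: Zmat3, Ccng1 and Cdkn1a. Zmat3 was higher in all 3 V libraries than in all WT libraries, by 0.93 ± 0.18 (adjusted p = 0.0550). Ccng1 was also higher in all of them, by 0.77 ± 0.26 (adjusted p = 0.227), and Cdkn1a by 1.10 ± 0.48 with overlap (adjusted p = 0.317). DESeq2 called 1 of the 10 genes, Zmat3 (adjusted p = 0.00281). With the replicate number as a block, which pairs V and WT libraries, 1 of the 10 genes passed, Zmat3, in all 13 libraries (adjusted p = 0.0314) and in V and WT alone (adjusted p = 0.0218), and genes called overall numbered 91 and 479. It also passed without WT replicate 1 or without V replicate 3 (adjusted p from 0.0248 to 0.0399), and over all alternatives its adjusted p ranged from 1.68e-05 to 0.837. With the 20 most abundant genes removed the genes called were 7 higher and 5 lower, in place of 17 and 7. RNA of sex-linked genes differs between V and WT libraries, and between each of these and the transplanted libraries. Xist had 3.79 to 96.9 CPM in VQ, 3.23 to 3.26 CPM in tVk12653, 1492 to 2642 CPM in V and 2.59 to 1486 CPM in WT. Ddx3y had at most 0.433 CPM in VQ and 0.362 CPM in tVk12653, 0 in V and 48.0 to 141 CPM in WT. WT replicate 1 had RNA of both, at 1486 and 48.0 CPM. The part of this in any comparison, that of the X-linked Eda2r included, was not tested.

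The VQ lines were not alike. D1 had the highest RNA of 9 of the 10 genes among the lines, both libraries above all D4 and D5 libraries, and the exception was Trp53inp1, while 20.7% of 12835 genes stood that way and 18.1% the other way. In D1 against D5, recipients of a line served as replicates, so the p-values measure spread between recipients and not between lines. There 7 of the 10 genes were higher and 0 lower, where 20.01% of all genes were higher and 21.7% lower. The median log2 fold change was 0.76 over the 10 genes and 0.05 over all genes. Cdkn1a was higher by 1.85 ± 0.43 (adjusted p = 0.00404), Zmat3 by 1.14 ± 0.19 (adjusted p = 0.000279), Aen by 0.93 ± 0.17 (adjusted p = 0.000567) and Mdm4 by 0.90 ± 0.19 (adjusted p = 0.00180). Trp53 was higher by 0.62 ± 0.16 (adjusted p = 0.00590), Eda2r by 1.63 ± 0.57 (adjusted p = 0.0425) and Mdm2 by 0.42 ± 0.15 (adjusted p = 0.0337). Ccng1, Phlda3 and Trp53inp1 did not pass, with 0.49 ± 0.31, 0.19 ± 0.46 and 0.51 ± 0.29 (adjusted p = 0.240, 0.770 and 0.179), though Ccng1 passed without V replicate 2 (adjusted p = 0.0417, range 0.0267 to 0.475). Without D1 replicate 2 4 of the 10 genes were called and Trp53 missed the threshold (adjusted p = 0.0560, range 0.00341 to 0.0560). Mdm2 was lost without any 1 of the 4 D1 and D5 libraries, and Eda2r without either D1 library, D5 replicate 1 or either tVk12653 library. D1 libraries had summed neutrophil markers of 349 and 1235 CPM, against 89.7 and 139 CPM in D5, and 653 to 761 CPM of monocyte markers, against 21.1 to 42.9 CPM. Most of that monocyte sum in D1 was Ly6c2 (499.6 and 641 CPM) and Cd68 (81.7 and 82.4 CPM). Ly6c2 had 2.37 and 22.1 CPM in D5 and 1533 CPM in D4. In D1 Lyz2 had 60.7 and 30.2 CPM, and each remaining monocyte marker at most 3.22 CPM. These values move with the line, and their part was not tested. D4 is a single library, so it was not tested against either.

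In VQ against tVk12653, Mdm2 alone of the 10 genes passed, higher by 0.76 ± 0.19 (adjusted p = 0.0333), where 5.97% of genes were higher and 4.19% lower. The call was lost in 8 of 15 fits that left out a library or line (adjusted p from 0.0538 to 0.233), those without WT replicate 1 or 3, any V library, either tVk12653 library or line D1, and in a fit of these arms alone 0 of the 10 genes passed. Aen differed by -0.71 ± 0.30 (adjusted p = 0.154), with all VQ libraries lower, and passed with line D1 left out (adjusted p = 0.00679, range 0.000271 to 0.389). Trp53 differed by 0.45 ± 0.39 (adjusted p = 0.468) and passed with D4 left out (adjusted p = 0.0497, range 0.0497 to 0.909). Phlda3 differed by 2.02 ± 0.82 (adjusted p = 0.138), with all VQ libraries higher, and Cdkn1a by 1.06 ± 0.72 (adjusted p = 0.349), with an interval from -0.53 to 2.66.

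From the highest level to the lowest, Mdm2 ran from V and WT through D1, D4 and D5 to tVk12653, and neighbouring groups did not overlap from D1 on. Zmat3 ran from D1 through tVk12653, D4 and D5 to V and WT, where D4 and D5 overlapped and the other neighbours did not. Cdkn1a ran from D1 through D4, D5 and tVk12653 to V and WT, with overlap between D5 and tVk12653 and between V and WT. Genes whose log2 profile over the 13 libraries lay closest to that of Trp53 were Msl3, Ift88 and Nampt, with root mean square differences of 0.21, 0.22 and 0.22 among 12835 genes. Closest to Mdm2 were Tm9sf2, Klhl9 and Akap11 (0.09, 0.14 and 0.15), and closest to Cdkn1a were Neb, Cped1 and Celf4 (0.53, 0.54 and 0.59).

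The wider set of p53 targets moved in both directions. Of 30 other targets, 5 were higher and 5 lower in VQ against WT, 16.7% each way, close to the 17.3% and 15.1% of all genes. Their median log2 fold change was 0.52, where that of all genes was 0.08. Bax, whose protein opens the mitochondrial outer membrane, stood at 52.7 ± 23.8 CPM in VQ (SD, n = 3 lines) and 18.2 ± 1.68 CPM in WT (n = 3), a change of 1.63 ± 0.38 (adjusted p = 0.00953). Pmaip1, which encodes the death protein NOXA, stood at 142 ± 80.1 CPM in VQ and 48.7 ± 15.7 CPM in WT, a change of 1.63 ± 0.45 (adjusted p = 0.0216). Ei24 also rose, by 1.06 ± 0.21 (adjusted p = 0.00460). The death receptor gene Fas stood at 4.0 ± 3.24 CPM in VQ and 19.2 ± 6.04 CPM in WT, a change of -2.25 ± 0.54 (adjusted p = 0.0115). Xpc, which encodes a DNA damage sensor of excision repair, changed by -1.02 ± 0.25 (adjusted p = 0.0124) and the epoxide hydrolase gene Ephx1 by -2.97 ± 0.70 (adjusted p = 0.0124). Against V, 8 of the 30 were higher and 4 lower (26.7% and 13.3%, with 15.6% and 12.4% of all genes). Higher genes included Plk3, a stress kinase gene, by 4.67 ± 0.99 (adjusted p = 0.00848), and Fdxr, a mitochondrial reductase gene, by 1.48 ± 0.32 (adjusted p = 0.00903).

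In tVk12653, 5 of the 30 were higher and 5 lower against WT, and 5 and 4 against V. These are 16.7% and 16.7% against WT, near the 12.6% and 15.7% of all genes, and 16.7% and 13.3% against V, with 10.3% and 12.9% of all genes. Bbc3, which encodes the death protein PUMA, stood at 94.7 and 124 CPM in tVk12653, against 19.6 to 30.4 CPM in WT, a change of 2.17 ± 0.38 (adjusted p = 0.00351). Gadd45a, a stress gene, and Ephx1 had no count in tVk12653. Gadd45a was at least 21.4-fold lower than in WT and at least 11.1-fold lower than in V, and Ephx1 at least 15-fold and 12-fold lower. In VQ against tVk12653, 2 of the 30 were higher (Sfn and Gadd45a) and 1 lower (Bbc3, by 1.42 ± 0.37, adjusted p = 0.040), 6.67% and 3.33%, near the 5.97% and 4.19% of all genes. Gadd45a had 9.67 and 6.38 CPM in D1 and 27.7 CPM in D4. In D5 it had only 2 and 5 counts (0.526 and 1.27 CPM), near the floor of 3 counts in tVk12653 (0.693 and 1.09 CPM). In V against WT 0 of the 30 passed by edgeR and 7 had an unadjusted p under 0.05.

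**Figure D3:**
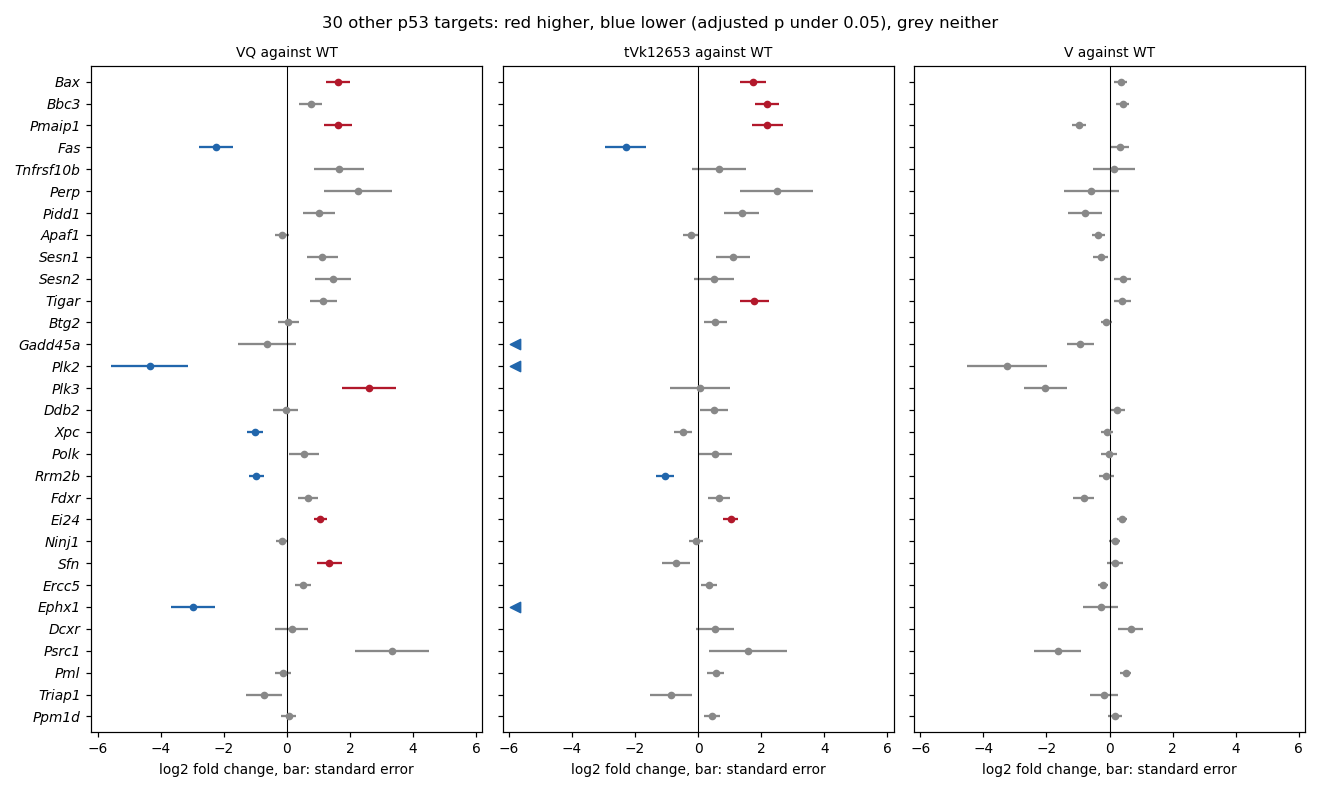
Log2 fold changes of 30 other p53 targets in VQ against WT, tVk12653 against WT and V against WT, with bars for the standard error. Red points are higher and blue points lower at an adjusted p under 0.05, grey points neither, and triangles at the left edge mark genes with no count in tVk12653. In VQ against WT 5 are higher and 5 lower, and in V against WT all are grey.

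Between D1 and D5, 9 of these 30 targets were higher and 4 lower, 30% and 13.3%, where 20.01% and 21.7% of all genes were. Tigar, whose protein lowers glycolysis, was higher by 1.93 ± 0.30 (adjusted p = 0.000129), Bbc3 by 1.59 ± 0.25 (adjusted p = 0.000171) and Sfn, encoding the 14-3-3 sigma checkpoint protein, by 1.65 ± 0.27 (adjusted p = 0.000226). The growth regulator gene Sesn1 was lower by 2.19 ± 0.28 (adjusted p = 6.78e-05), Psrc1 by 2.01 ± 0.46 (adjusted p = 0.00382) and Plk3 by 2.63 ± 0.59 (adjusted p = 0.00529).

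Upstream of p53, 4 of 17 activators and cofactors were higher and 1 lower in VQ against WT, 23.5% and 5.88%, where 17.3% and 15.1% of all genes were, and their median log2 fold change was -0.06. Npm1, a nucleolar protein gene whose product binds MDM2 and ARF, stood at 599.7 ± 336 CPM in VQ and 117 ± 0.721 CPM in WT (2.43 ± 0.39, adjusted p = 0.00176). Rpl11, a ribosomal protein that restrains MDM2, differed by 1.52 ± 0.28 (adjusted p = 0.00362), and the checkpoint kinase gene Chek1 by 1.51 ± 0.40 (adjusted p = 0.0176). Npm1 and Rpl11 have many near-identical pseudogene copies, so their counts are uncertain. Ppp1r13b, encoding the p53 partner ASPP1, fell by 0.94 ± 0.14 (adjusted p = 0.00141). In tVk12653 against WT 2 of the 17 were higher, Prkdc, a DNA repair kinase gene (0.99 ± 0.19, adjusted p = 0.00559), and Chek1 (1.99 ± 0.44, adjusted p = 0.00968), and 4 were lower, 11.8% and 23.5%, where 12.6% and 15.7% of all genes were. Cdkn2a, the locus of the p53 activator ARF, was chosen after its values were seen: it had 16.2 and 11.2 CPM in tVk12653, 0.269 and 0.541 CPM in D1, 5.31 CPM in D4, 0 in both D5 libraries, 6.44, 14.6 and 5.83 CPM in V and 3.18, 1.85 and 2.56 CPM in WT, with no difference passing.

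Of 10 further restrainers of p53, 9 were tested. In VQ against WT 1 was higher and 2 were lower, few genes beside the 17.3% and 15.1% of all genes. The ubiquitin ligase gene Rchy1 stood at 29.1 ± 4.09 CPM in VQ and 72.1 ± 5.0 CPM in WT, a change of -1.25 ± 0.18 (adjusted p = 0.00102). The deacetylase gene Sirt1 changed by -0.82 ± 0.19 (adjusted p = 0.00923). Bmi1, a Polycomb gene that represses Cdkn2a, differed by 1.61 ± 0.48 (adjusted p = 0.0285), and was lower in tVk12653 than in V, by 2.16 ± 0.57 (adjusted p = 0.0252).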

How the data were processed

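RNA of sorted bone marrow cells was extracted with RNeasy Micro and libraries were prepared with the SMARTer Pico total RNA kit, which keeps strand, per the labels' protocols. Reads were aligned with STAR 2.6.1d to GRCm38.p6, per the submitters' processing notes. The authors deposited raw, unnormalized counts for each gene symbol. Neither the counting tool nor the annotation is given in the sources used. Of 22997 symbols, 22000 matched RefSeq.

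The 10 genes and the other lists were chosen with earlier results of these data known. Low counts were filtered (filterByExpr, minimum 10, total 15), and edgeR 4.0.16 (R 4.3.3) with TMM factors fitted 11 units, 1 mean per arm, for comparisons with VQ or tVk12653. V against WT and D1 against D5 came from 13 libraries with 1 mean per group. Named genes were all 10, up to 3 per list and direction with the smallest p, and the 3 most alike in profile. WT and V libraries of the same number deviated together (r = 0.144 to 0.208), and no other 2 groups had every same-number r above 0.1. Deviations were centred on each group, which pushes the r of other numbers (-0.16 to -0.0563) down, so those add no support. Numbers were taken to pair WT and V in the replicate block only, and the main test of V against WT was not paired. Chi-square over its degrees of freedom was 4.97 to 14.4 within groups, so no library was a copy of another. Intervals on summed counts and floors cover counting error only. Alternatives were RLE factors, no or stricter (30) count filter, DESeq2 1.42.0, 20 abundant genes removed, the arms alone, other pooling of libraries, a replicate block, and each library or line left out. One more, a fit without WT replicate 2 and without D1 replicate 1, which had high neutrophil markers, was added after seeing the data. The tests were tried on simulated data. Promoter windows come from RefSeq (GRCm38.p6).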

Additional observations from a re-analysis of the deposited data

How the results depend on the processing

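Of 596 fold changes of the 10 genes under settings other than leaving out a library or line in turn, 550 kept their direction and their side of the threshold. The 596 include the fit without WT replicate 2 and D1 replicate 1 that was added after seeing the data. Leaving out a library or line in turn gave these ranges of genes called. In VQ against WT they were 2505 to 4516 genes in all and 4 to 6 of the 10. In VQ against V they were 1694 to 4010 and 2 to 6. In tVk12653 against WT they were 1087 to 4697 and 2 to 6, and against V 662 to 4196 and 2 to 5. In VQ against tVk12653 they were 138 to 2003 and 0 to 2, in V against WT 5 to 89 and 0 to 1, and in D1 against D5 3901 to 5702 and 4 to 8. Fits of the arms alone called 2040 genes (VQ against WT), 1498 (VQ against V, 1 of the 10), 5164 (tVk12653 against WT), 5246 (tVk12653 against V), 26 (VQ against tVk12653, 0 of the 10) and 2 (V against WT). The replicate block over all 13 libraries, which counts recipients of a line as replicates, called 6893, 6417 (8 of the 10), 5965, 5381, 5084 (6 of the 10) and 91 (1 of the 10) in the same order, and 479 (1 of the 10) in WT and V alone. It ended 1 other call, Eda2r in D1 against D5 (1.60). DESeq2 called 2121 genes in VQ against tVk12653. Without the low count filter 0 of the 10 passed there. In V against WT the counts were 13 with RLE factors, 986 (3 of the 10) without the filter, 14 with a minimum of 30, 275 (1 of the 10) with DESeq2, 12 without the 20 abundant genes and 0 in the fit of 11 units. In the added fit without WT replicate 2 and D1 replicate 1, tVk12653 against WT had 2160 genes and 3 of the 10.

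Changes of sign concerned differences that passed no test as first computed. In V against WT, Mdm4 was -0.0028 with RLE factors, -0.0029 with DESeq2, -0.002 with the block and -0.065 without both added libraries, and Trp53inp1 was -0.066 without them. Leaving out a library or line gave Mdm4 -0.2 to 0.14 and Trp53inp1 -0.067 to 0.29 there, Ccng1 -0.37 to 0.35 in VQ against V, Mdm4 -0.18 to 0.079 and Ccng1 -0.1 to 0.44 in tVk12653 against WT, Mdm4 -0.21 to 0.13 in tVk12653 against V, and Trp53 -0.064 to 0.79 and Zmat3 -0.35 to 0.39 in VQ against tVk12653. The cause was not tested. Without the filter the median of all genes in VQ against WT moved by 0.11 on the log2 scale, and with the block by -0.18. Depth limits Phlda3 and Eda2r most, with 0 to 2 summed counts in V and in WT.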
